A study of Mus musculus with 8 samples.

Results

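The subunits of the mitochondrial respiratory chain and of ATP synthase, with cytochrome c and the forms of these proteins made in testis, were followed in testis RNA of mice at postnatal day 23. Members were all probe sets whose gene symbol begins with Nduf, Uqcr, Cox4 to Cox8 or Atp5, or is Sdha, Sdhb, Sdhc, Sdhd, Cycs or Cyct. The rule used names and no measured value. It gave 184 probe sets of 45101 on the array, for 88 genes of 22666 named in the table. Of these probe sets 158 matched 1 gene and 26 matched further genes or pseudogene copies, so that their signal can come from several transcripts. Complex I supplied 40 genes (7 of the catalytic core, 31 other subunits and paralogs, 2 assembly factors), complex II 4, complex III 7, cytochrome c 2, complex IV 17 and ATP synthase 15. A further 3 genes, Cox4nb, Atp5s and Atp5sl, share the letters but encode no subunit in the list used here. Cox7b and Ndufb1 had no probe set, and 9 other genes that carry such symbols in RefSeq today stood in the table under older names and are no members.

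Each sample had its own Affymetrix Mouse430_2 array. Wildtype samples numbered 5 and bear the replicate numbers 1, 2, 4, 6 and 7, and Ctcfl mutant samples numbered 3 and bear 3, 5 and 8. CTCFL, also known as BORIS, is a DNA-binding relative of CTCF found in male germ cells. In the study's text the mutants are Ctcfl del/del mice, and the samples labelled wildtype are Ctcfl del/+ littermates. In the del allele, Cre recombination in the animal removed a run of exons. A GFP coding sequence, inserted just after the start codon, remained. Both groups thus carry at least 1 del allele, on a C57/Bl6 background. The names in the labels are kept here. Nothing in the labels says whether each sample is a separate animal, so that p-values measure the spread between these samples. Ctcfl itself is not analysed here. All levels are log2 RMA values, in which a difference of 1 is a doubling. Since probe sets bind their transcripts unequally, each is compared only with itself across arrays.

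The respiratory chain passes electrons from NADH (complex I) and succinate (complex II) through complex III and the small carrier cytochrome c to oxygen at complex IV, and the proton gradient that results drives ATP synthase. Most subunits are encoded by single genes used in all tissues. A few, among them some of cytochrome c and complex IV, have paralogs made mainly in certain tissues. Cyct, Cox6b2, Cox7b2 and Cox8c are the forms of male germ cells, where they are made from the meiotic stages onward, beside the general Cycs, Cox6b1, Cox7b and Cox8a. At day 23 the first wave of spermatogenesis has reached spermatids, so that a testis holds cells before, during and after this change of isoform.

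Promoter sequence is shown for both forms of 2 pairs, since general and testis forms are used in unlike cells. The 4 windows below were taken from RefSeq (GRCm38.p6) and hold the 250 bases before the annotated start of a general form and of its testis form, read 5′ to 3′ on the gene's strand, with motif matches in capitals. The motifs searched, on both strands, were the cAMP response element CRE (TGACGTCA), its first letters alone (TGACG, which every CRE also holds), the NRF-1 core GCATGCGC, the ETS or GABP letters CCGGAAG and the YY1 core ATGGCGG.
Cycs, general cytochrome c, chr6:50566570-50566819, minus strand: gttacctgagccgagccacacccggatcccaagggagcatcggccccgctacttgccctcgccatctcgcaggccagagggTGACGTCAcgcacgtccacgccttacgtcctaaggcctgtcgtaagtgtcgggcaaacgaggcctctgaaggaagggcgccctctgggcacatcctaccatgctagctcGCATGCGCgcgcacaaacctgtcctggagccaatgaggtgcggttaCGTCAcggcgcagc
Cyct, testis cytochrome c, chr2:76360454-76360703, minus strand: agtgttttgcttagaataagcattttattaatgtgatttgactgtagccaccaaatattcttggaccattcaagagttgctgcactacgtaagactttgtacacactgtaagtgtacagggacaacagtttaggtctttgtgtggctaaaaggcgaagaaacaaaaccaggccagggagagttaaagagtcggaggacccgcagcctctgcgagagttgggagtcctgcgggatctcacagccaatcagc
Cox6b1, general complex IV subunit, chr7:30626115-30626364, minus strand: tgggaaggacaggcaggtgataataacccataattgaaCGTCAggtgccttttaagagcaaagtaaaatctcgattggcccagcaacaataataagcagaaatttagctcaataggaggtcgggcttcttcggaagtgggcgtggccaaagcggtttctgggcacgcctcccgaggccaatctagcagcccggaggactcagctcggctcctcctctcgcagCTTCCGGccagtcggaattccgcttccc
Cox6b2, testis complex IV subunit, chr7:4753095-4753344, minus strand: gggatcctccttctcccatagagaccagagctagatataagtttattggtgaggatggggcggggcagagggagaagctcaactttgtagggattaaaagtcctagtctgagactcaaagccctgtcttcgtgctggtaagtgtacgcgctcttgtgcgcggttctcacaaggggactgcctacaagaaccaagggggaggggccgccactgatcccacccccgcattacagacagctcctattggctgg

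The Cycs window held a full CRE from base -169 to -162, an NRF-1 core from -60 to -53 and a further TGACG on the other strand from -14 to -10. The Cox6b1 window held TGACG on the other strand from -212 to -208 and the ETS letters on the other strand from -28 to -22. Neither testis window held any of the 5 motifs. CpG dinucleotides numbered 23 in the Cycs window and 14 in that of Cox6b1, against 6 for Cyct and 8 for Cox6b2, with a median of 6 over all 32851 windows. Of the other windows of the testis pairs, that of Cox7b2 (chr5:71548206-71548455) held 1 TGACG and 9 CpG, and that of Cox8a (chr19:7217617-7217866) held 1 TGACG and 11 CpG. The window of Cox7b (chrX:106015450-106015699), the general form beside Cox7b2, held none of the motifs and 5 CpG, so that this pair did not show the order seen in the other 2.

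Over the 76 windows of 71 member genes the motifs stood as follows. The NRF-1 core was in 11.8% of member windows and 2.26% of all windows, the ETS letters in 17.1% and 6.91%, and YY1 in 6.58% and 2.21%. A full CRE was in 6.58% of member windows (those of Cycs, Ndufa10, Ndufa11, Ndufb2 and Uqcrfs1) and 1.55% of all, and TGACG in 31.6% and 17.8%. A match describes letters in the window and is no evidence of a bound factor.

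The tissue was checked by marker genes. All 8 spermatid genes, the 5 measured genes of pachytene spermatocytes, all 5 of spermatogonia, all 6 of Sertoli cells and the 4 measured of Leydig cells lay above the median of the arrays, whose medians ran from 6.40 to 6.45. Skeletal muscle genes, a possible source of the muscle forms Cox6a2, Cox7a1 and Cox8b, averaged 4.79 to 5.01 on the arrays, and 1 of 5 (Ckm) lay above that median. On 2 arrays, wildtype replicate 7 and mutant replicate 8, transcripts of other cells stood high. Spermatid genes averaged 11.42 and 10.92 there and 8.51 to 9.36 elsewhere, and 5 fat cell genes averaged 7.87 and 7.95 against 5.74 to 6.57. Fewer cells of a type and less RNA per cell cannot be told apart in whole testis. Results that these arrays touch are also given with the pair blocked or left out.

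The measured differences between genotypes lay between -0.30 and 0.26 at all member probe sets. With limma, 0 of the 184 member probe sets passed an adjusted p of 0.05, as did 0.0% of all probe sets, and every adjusted p was 1.0. At an unadjusted p of 0.05 there were 5 member probe sets (2.72%), 4 lower and 1 higher in mutant, against 3.47% of all 45101. This share is no higher than the background. It rested on single arrays, with 17 members past 0.05 without mutant replicate 3 (9.24% against 4.12% of all probe sets), 0 without mutant replicate 5 (all, 2.71%), 3 without wildtype replicate 2 (1.63% against 2.78%) and 9 without wildtype replicate 6 (4.89% against 3.12%). When the pair was blocked, members past 0.05 again numbered 5, against 5.86% of all probe sets. The median difference of mutant minus wildtype was -0.01 for the members and 0.00 for all probe sets, and 151 members differed by less than 0.1 in either direction. For 126 of the 184, the 95% interval of the difference lay wholly between -0.25 and 0.25. Members were also steady from array to array, with a median SD over the 8 arrays of 0.07 for those with a mean level above 10, against 0.09 for all probe sets that bright.

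Genotypes did not overlap at 5 members, which is 2.72% against 2.70% of all probe sets and thus near the background. All 5 were in cytochrome c and complex IV. The mutant arrays were all lower at 3 (Cyct, Cox8b and 1 probe set of Cox5a), where 1.31% of all probe sets showed this, and all higher at 2 (1 probe set each of Cox5b and Cox7a2l), where 1.38% of all did. The other 2 of the 5 members past an unadjusted 0.05, Ndufa4l2 and 1 probe set of Ndufs4, overlapped.

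**Figure D1:**
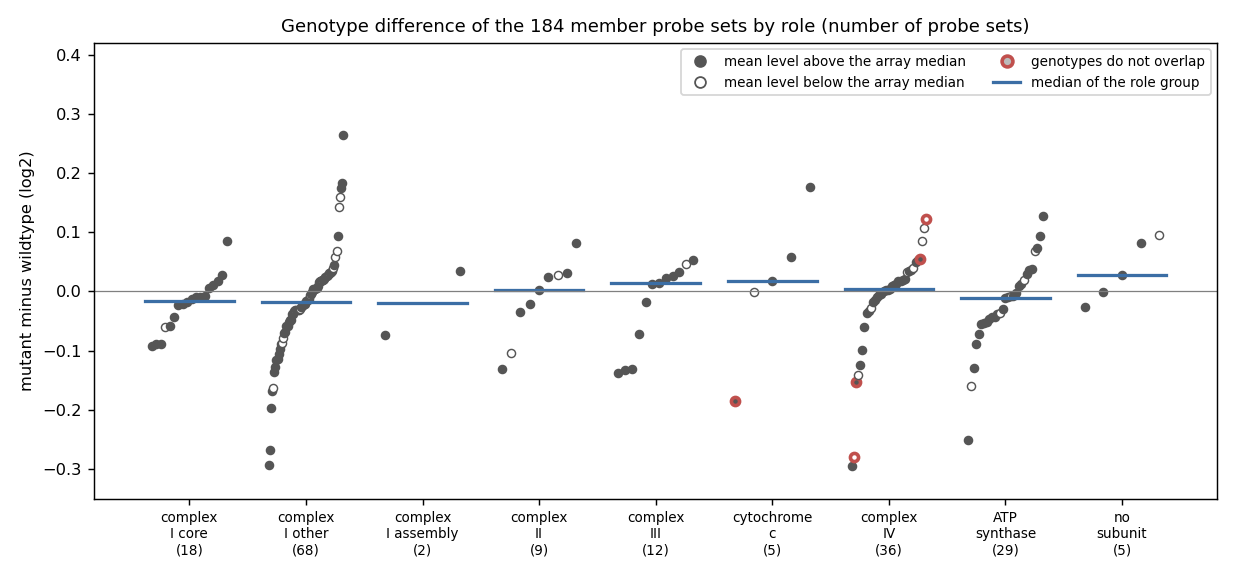
Difference of mutant minus wildtype mean (log2, vertical axis) for each of the 184 member probe sets, sorted within role groups, with the number of probe sets in brackets. Open circles lie below the array median, red rims mark the 5 probe sets whose genotypes do not overlap, and blue lines mark group medians, which lie between -0.02 and 0.03.

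The clearest of these was Cyct, the cytochrome c of spermatocytes, spermatids and sperm, which had the lowest p among the bright members without overlap. It stood at 11.66, 11.71, 11.64, 11.57 and 11.73 on wildtype replicates 1, 2, 4, 6 and 7 and at 11.48, 11.41 and 11.54 on mutant replicates 3, 5 and 8. The highest mutant array lay just below the lowest wildtype array. The difference was -0.18 ± 0.07 (SE; 95% interval -0.33 to -0.04; limma unadjusted p = 0.020, adjusted p = 1.0). It was -0.20 without the pair, -0.20 with the pair blocked and -0.19 within the pair. All 8 spermatid markers also had a lower mean in mutant, by a median of -0.15, with 0 of 8 past an unadjusted 0.05 in limma. With the pair blocked the median was -0.43, and 6 of 8 were past an unadjusted 0.05, all lower in mutant (Prm1, Prm2, Tnp1, Tnp2, Odf1 and Gapdhs, 0 after adjustment). Without the pair the median was -0.46, with 3 of 8 past 0.05 before adjustment and 0 after it. Of all probe sets, 5.86% were past an unadjusted 0.05 with the pair blocked and 6.55% without it. The pair was told apart by expression values, and spermatid genes stood high on it. The marker counts with the pair blocked or left out therefore carry no weight as a test. The 5 pachytene markers, genes of the cells in which Cyct is first made, averaged 12.06 to 12.22 in wildtype and 11.96 to 12.13 in mutant. Of them, 1 was past an unadjusted 0.05 with the pair blocked, Piwil1 at -0.20. The part of either cell type in the Cyct values was not tested.

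Cycs, the general form that also carries electrons in somatic cells and takes part in apoptosis once released, stood at 10.21, 10.24, 9.99, 9.98 and 10.12 in wildtype and 10.30, 10.28 and 9.93 in mutant. Its mutant arrays spanned the whole wildtype range and more, and the difference was 0.06 ± 0.10 (SE). A brighter Cycs probe set that also matches a pseudogene read 11.27, 11.35, 11.13, 11.12 and 11.22 against 11.50, 11.52 and 11.16, a difference of 0.18 ± 0.10 (SE) with limma unadjusted p = 0.104. On all 3 Cycs probe sets above the array median, mutant replicate 8 lay below both other mutant arrays.

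Within each array, Cyct minus Cycs was 1.45, 1.47, 1.64, 1.58 and 1.61 in wildtype and 1.18, 1.13 and 1.62 in mutant. Mutant replicates 3 and 5 were thus below every wildtype array, while mutant replicate 8 was not. The difference of genotypes was -0.24 (exact two-sided permutation test over the 56 splits, p = 0.179, adjusted over 8 isoform pairs p = 0.714), with a mean ± SD of 1.55 ± 0.09 (n = 5) and 1.31 ± 0.27 (n = 3). With mutant replicate 8 left out it was -0.40, and within the pair it was 0.00.

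**Figure D2:**
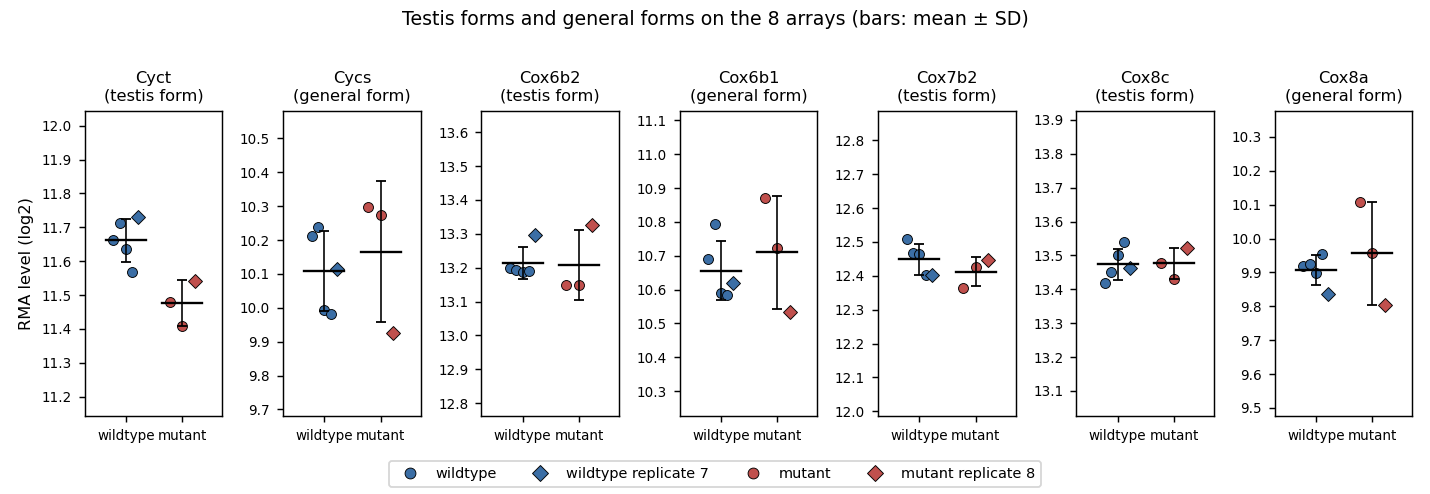
RMA level (log2, vertical axis, all panels of equal span) of the 4 testis forms and of the 3 general forms with a probe set, on 5 wildtype (blue) and 3 mutant (red) arrays. Diamonds are wildtype replicate 7 and mutant replicate 8, and bars give mean ± SD. The 3 mutant arrays lie below the 5 wildtype arrays for Cyct, from 11.41 to 11.54, and overlap with them in the other panels.

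The testis forms of complex IV did not part the genotypes. Cox6b2, the testis form of a subunit that lies where complex IV forms dimers, read 13.20, 13.19, 13.19, 13.19 and 13.30 in wildtype and 13.15, 13.15 and 13.33 in mutant. Wildtype replicate 7 and mutant replicate 8 were the highest arrays of their groups, and the other 6 lay between 13.15 and 13.20. The difference of genotypes was -0.01 (95% interval -0.16 to 0.15).

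Its general counterpart Cox6b1 read 10.69, 10.79, 10.59, 10.58 and 10.62 in wildtype and 10.87, 10.72 and 10.54 in mutant. Mutant replicate 8 was here the lowest of all arrays. Cox6b2 minus Cox6b1 differed by -0.06 between genotypes (exact permutation p = 0.643, adjusted over the pairs p = 0.735), and mutant replicate 3 decided its sign, since without it the value was 0.05.

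Cox7b2 read 12.51, 12.47, 12.47, 12.40 and 12.40 against 12.36, 12.43 and 12.45, a difference of -0.04 (95% interval -0.17 to 0.10). The groups overlapped, and the pair of arrays lay within the range of the rest. Cox7b, its general form, could not be set beside it.

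Cox8c, the testis form of the small membrane subunit Cox8, read 13.42, 13.45, 13.50, 13.54 and 13.46 against 13.48, 13.43 and 13.52. The difference was 0.00 (95% interval -0.13 to 0.14). A far dimmer second probe set of Cox8c, with the suffix that marks cross-hybridisation, read 7.06, 7.15, 7.53, 7.09 and 6.77 against 6.89, 6.61 and 6.99, a difference of -0.30 ± 0.15 (SE; limma unadjusted p = 0.078). Both probe sets of this gene are named Cox8c in the table, and they gave unlike values.

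The general Cox8a read 9.92, 9.93, 9.90, 9.95 and 9.84 against 10.11, 9.96 and 9.80, with wildtype replicate 7 and mutant replicate 8 lowest. Cox8c minus Cox8a differed by -0.05 between genotypes (exact permutation p = 0.571, adjusted over the pairs p = 0.735), and this too turned, to 0.03, without mutant replicate 3.

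In all 3 testis pairs that could be formed, the mean within-array difference was lower in mutant, at -0.24, -0.06 and -0.05, and in none did the test pass. The 3 values share the same 8 arrays. In each, mutant replicate 8 was the highest of the 3 mutant arrays. Relative to the mean of the other 2 mutant arrays, replicate 8 was higher by 0.46 for Cyct minus Cycs, 0.44 for Cox6b2 minus Cox6b1 and 0.30 for Cox8c minus Cox8a. Wildtype replicate 7 was higher than the mean of the other 4 wildtype arrays by 0.08, 0.15 and 0.07. For Cox6b2 and Cox8c the pair of arrays gave the 2 highest values of all 8 arrays. These are the same 2 arrays on which the spermatid and fat lists stood high, and the part of those cells in this difference was not tested. Taken singly, Cyct, Cox6b2 and Cox8c departed by 0.10, 0.18 and 0.07 on mutant replicate 8. Cycs, Cox6b1 and Cox8a departed by -0.36, -0.26 and -0.23 there. The larger part of each pair's departure on that array was thus a lower level of the general form. Leaving the pair out, the genotype differences of the 3 testis pairs were -0.38, -0.18 and -0.13. On the same 6 arrays Cyct, Cox6b2 and Cox8c differed by -0.20, -0.04 and -0.02. Cycs, Cox6b1 and Cox8a differed by 0.18, 0.13 and 0.11. Median differences of the marker lists there were -0.46 for spermatids, -0.08 for pachytene spermatocytes and -0.42 for fat cells. They were 0.15 for spermatogonia, 0.14 for Sertoli cells and 0.34 for Leydig cells. The part of any of these cells was not tested.

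**Figure D3:**
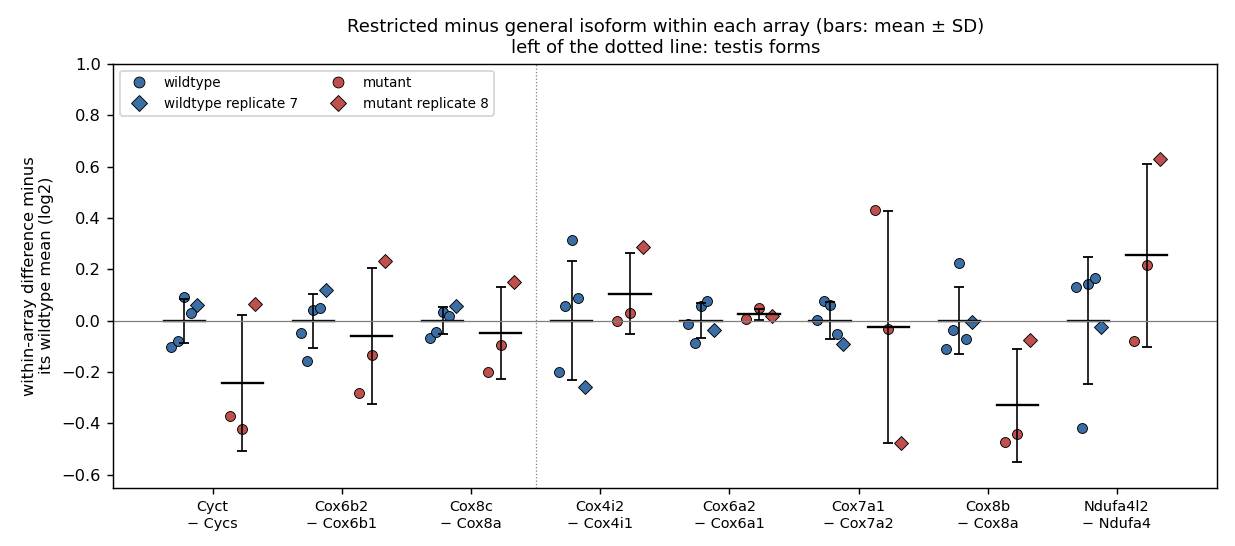
Log2 level of the restricted form minus that of the general form within each array, set to 0 at the wildtype mean (vertical axis), for 8 isoform pairs, with testis forms left of the dotted line. Points are arrays, diamonds are wildtype replicate 7 and mutant replicate 8, and bars give mean ± SD. In the 3 testis pairs the mutant diamond lies above both other mutant points, and the genotype means differ by -0.24, -0.06 and -0.05.

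The forms made in muscle, heart, lung or low oxygen gave 5 further pairs. Cox8b, the heart and muscle form of the Cox8 subunit, read 5.74, 5.82, 6.05, 5.81 and 5.76 in wildtype and 5.57, 5.44 and 5.66 in mutant. No mutant array reached the wildtype range, and the difference was -0.28 ± 0.09 (SE; limma unadjusted p = 0.010, adjusted p = 1.0). All 8 readings lay below the array medians, so that the signal is close to that of unexpressed probe sets. Its difference was -0.35 without the pair of arrays. Cox8b minus Cox8a gave -0.33 (exact permutation p = 0.071, adjusted over the pairs p = 0.571).

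Ndufa4l2, a paralog of Ndufa4 that is induced by low oxygen, read 9.66, 9.30, 9.58, 9.62 and 9.36 in wildtype and 9.61, 9.81 and 9.90 in mutant. Mutant replicate 3 lay among the wildtype arrays and the other 2 above them. The difference was 0.26 ± 0.11 (SE; limma unadjusted p = 0.032, adjusted p = 1.0), and without the pair of arrays it was 0.16. Ndufa4, long listed with complex I and now placed in complex IV, read 9.84, 10.03, 9.74, 9.76 and 9.69 against 9.99, 9.90 and 9.57. It was lowest on mutant replicate 8, and the within-array difference of the pair was 0.25 higher in mutant (exact permutation p = 0.321, adjusted over the pairs p = 0.735).

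Cox7a1, the heart and muscle form of Cox7a, read 7.37, 7.40, 7.42, 7.29 and 7.29 in wildtype but 7.78, 7.32 and 6.99 in mutant. The mutant arrays held both the highest and the lowest of the 8 values. Cox7a1 minus Cox7a2 differed by -0.03 with a mutant SD of 0.45, and the sign turned without mutant replicate 8, to 0.20. Cox4i2, the lung form of Cox4, and Cox6a2, of heart and muscle, gave pair differences of 0.11 and 0.02 (exact permutation p = 0.643 and p = 0.571, n = 5 and n = 3). Of the 8 exact tests none passed, and the smallest p that 5 against 3 arrays allow is 0.0357 before adjustment. With adjustment over the 8 pairs, 1 pair alone could not have passed even at that value. The tests therefore cannot show that the genotypes are alike.

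Of the general subunits of complex IV, Cox6b1 and Cox8a varied as given above. Cox4i1, Cox6a1 and Cox7a2 differed between genotypes by 0.00, -0.01 and 0.04 on probe sets that spanned 13.19 to 13.29, 13.35 to 13.44 and 12.97 to 13.11 over all arrays. The 28 complex IV probe sets above the array median had a median SD of 0.05. One probe set of Cox5a parted the genotypes, with 12.38, 12.40, 12.41, 12.34 and 12.47 in wildtype and 12.31, 12.27 and 12.16 in mutant. Its difference was -0.15 ± 0.06 (SE; limma unadjusted p = 0.041, adjusted p = 1.0). The other 2 probe sets of Cox5a gave -0.12 and -0.03, and the groups overlapped at both.

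The 2 complex IV probe sets on which all mutant arrays were higher were a Cox5b probe set near the floor of the array and one of Cox7a2l. The Cox5b probe set differed by 0.12 ± 0.06 (SE) with all mutant arrays at 4.07 or 4.08, and the 4 other Cox5b probe sets with levels above 12 differed by -0.06 to 0.02. Cox7a2l, which joins complexes III and IV into supercomplexes, differed by 0.05 on that probe set and by -0.02 and 0.03 on the other 2.

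In complex I, the 18 probe sets of the 7 core genes had a median difference of -0.02, with 13 lower and 5 higher in mutant and 0 past an unadjusted p of 0.05. Ndufs8 alone supplied several of the lower ones, so that such counts include genes more than once. Of all probe sets 48.5% were lower, and 55.6% of those with a mean level above 10. At 1 main probe set per gene, 44 members of the whole set were lower and 44 higher. Ndufv2, of the NADH-oxidising module, differed by -0.01 on its brightest probe set. The main probe set of Ndufs7 differed by 0.08 and a second one by -0.09. Of the core genes' main probe sets Ndufs1 lay lowest in mutant, at -0.06 on a probe set near the array floor and also at -0.06 on a probe set of level 10.74.

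The 68 probe sets of other complex I genes had a median of -0.02, with 40 lower and 28 higher. Ndufs5, an accessory subunit, had the lowest difference of any member's main probe set and was also the least even. Its main probe set, shared with a pseudogene, read 11.11, 11.28, 10.54, 10.57 and 10.76 in wildtype and 10.68, 11.12 and 9.88 in mutant. Mutant replicate 8 was far below all others, and the wildtype arrays themselves spread from 10.54 to 11.28. The difference was -0.29 ± 0.27 (SE; limma unadjusted p = 0.295), and without mutant replicate 8 it was 0.05. The second probe set of Ndufs5 read 11.04 to 11.21 on the 7 other arrays and 10.55 on mutant replicate 8. Ndufs4, an accessory subunit close to the NADH site, was named after its values were seen. One cross-hybridising probe set read 7.93, 7.96, 7.68, 7.75 and 7.91 against 7.73, 7.48 and 7.53, a difference of -0.27 ± 0.09 (SE; limma unadjusted p = 0.014, adjusted p = 1.0), whereas the brightest probe set of Ndufs4, at 10.81 to 10.99, differed by -0.03.

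The 2 assembly factors, Ndufaf1 and Ndufaf2, differed by 0.03 and -0.07. Complex II, which is also the succinate dehydrogenase of the citric acid cycle, had 0 of 9 probe sets past 0.05. Sdhb, the iron-sulphur subunit, differed by 0.00 and Sdhd, a membrane anchor, by 0.08, with -0.13 on its second probe set. Complex III had 0 of 12, with Uqcrfs1, the Rieske protein, at 0.05 and Uqcrc2, a core subunit, at 0.02 and -0.13 on its probe sets. Uqcrq, a small subunit, stood at -0.14 on a dim probe set and at 0.03 on its brightest.

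ATP synthase had 0 of 29 probe sets past 0.05, 19 lower and 10 higher, with a median of -0.01. Atp5b, the catalytic beta subunit, differed by 0.04. Atp5d, the delta subunit of the central stalk, differed by 0.09 and 0.03 on its probe sets, and Atp5c1, the gamma subunit of the stalk, by 0.07 on a dim probe set and 0.04 on a bright one. Atp5g1 and Atp5g2, which encode the same ring subunit, had values of -0.16 on a dim main probe set of Atp5g1 and -0.03 for Atp5g2. Of the genes that are no subunits, Atp5sl differed by 0.08, Cox4nb by 0.03 and Atp5s by 0.00.

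Of the partner genes of the chain, 36 of 37 listed had a probe set, and 0 of 36 passed either threshold, with 17 lower and 19 higher and a median difference of 0.01. The groups were 7 carriers and channels, 9 complex IV assembly factors, 11 measured genes of pyruvate dehydrogenase and the citric acid cycle, and 9 regulators. Slc25a31, the ADP/ATP carrier of the germ line, read 10.78, 10.82, 10.72, 10.71 and 10.86 in wildtype and 10.69, 10.82 and 10.61 in mutant. Pdha2, the testis form of the pyruvate dehydrogenase E1 alpha subunit, ran from 12.28 to 12.40 over all 8 arrays. Nrf1 and Gabpa, which encode factors that bind the NRF-1 and ETS letters, differed by -0.03 and 0.03.

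Some members stood apart on the pair of arrays. Both wildtype replicate 7 and mutant replicate 8 lay above the other 6 arrays at 12 member probe sets, 6.52% against 8.6% of all probe sets, and below them at 22, 12.0% against 10.3% of all. Among probe sets above the array median, the share above was 4.61% of members against 11.6% of all, and the share below 13.2% against 14.0%. The share below was thus near the background, and the share above was lower than among probe sets of like level. Spermatid markers such as Prm1 departed by 3.19 and 3.21 on the 2 arrays, whereas the members' departures had a median of -0.02 and -0.03. For the testis forms the departures on wildtype replicate 7 and mutant replicate 8 were 0.08 and 0.10 for Cyct, 0.10 and 0.18 for Cox6b2, -0.06 and 0.05 for Cox7b2, and -0.01 and 0.07 for Cox8c.

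Among the members below the other 6 arrays on both were Ndufb11, Ndufa4, Ndufa10, Uqcrc2, Atp5g2 and Cox8a. Ndufb11, an X-linked accessory subunit of complex I, was the clearest, since all 3 of its probe sets lay below. They departed by -0.16 to -0.19 on wildtype replicate 7 and by -0.34 to -0.50 on mutant replicate 8. Ndufa4 departed by -0.15 and -0.37, Atp5g2 by -0.16 and -0.27 and Uqcrc2 by -0.18 and -0.11. Of the members with a mean level above 10, 7 probe sets lay above on both, 5.56% against 11.5% of all probe sets that bright. They were Cox6b2, both probe sets of Cox7a2 (0.10 and 0.08, and 0.04 and 0.11), the brightest of Uqcrq (0.11 and 0.16), and 1 probe set each of Cox6c (0.07 and 0.09), Ndufb5 (0.05 and 0.07) and Ndufc1 (0.06 and 0.10). Spermatid genes departed by a median of 2.36 and 2.23 and spermatogonial genes by -0.11 and -0.22 on the same arrays, and the part of these cells in the members' values was not tested.

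**Figure D4:**
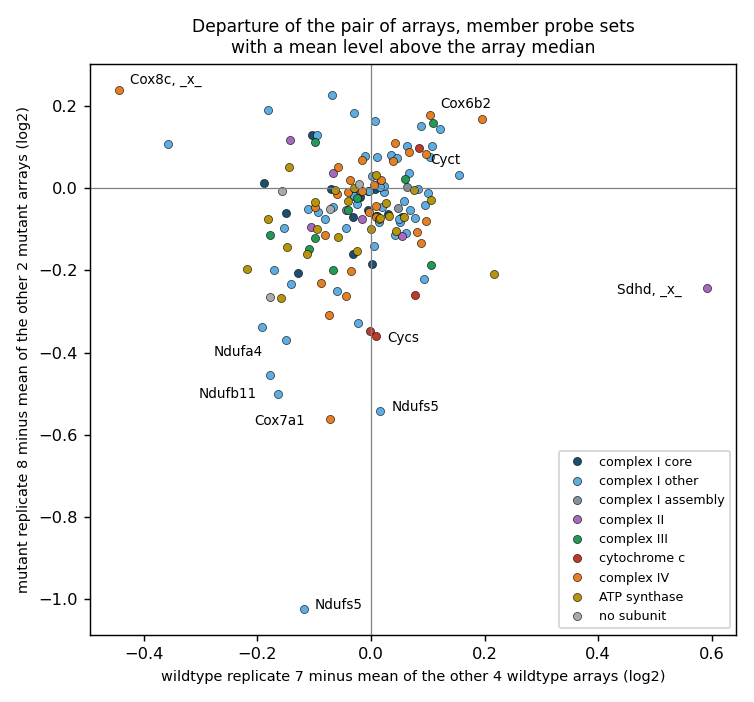
Departure of mutant replicate 8 from the mean of the other 2 mutant arrays (vertical axis, log2) against that of wildtype replicate 7 from the mean of the other 4 wildtype arrays (horizontal axis, log2) for the 152 member probe sets above the array median, coloured by role. Most points lie within 0.2 of 0, Ndufs5 reaches -1.02 on mutant replicate 8, and Cox6b2 and Cyct lie above 0 on both axes; the suffix _x_ marks cross-hybridising second probe sets of Cox8c and Sdhd.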

How the data were processed

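Total testis RNA of mice aged 23 days was labelled with biotin and run on 8 Mouse430_2 arrays of Affymetrix. According to the methods, the authors processed the scans with RMA (background correction and normalisation; version not given in the sources used here) and deposited log2 levels. RMA pulls the arrays to 1 distribution and compresses differences near the floor. The group means, fold changes and p-values in the deposited tables are the authors' own comparisons and were not used. Groups came from the sample titles.

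The deposited log2 levels were fitted without a filter over all 45101 probe sets by limma 3.58.1 in R 4.3.3 (lmFit, then eBayes), with genotype as the only term, two-sided, with Benjamini-Hochberg adjustment. The fit was tested on simulated data. Isoform pairs were compared within arrays (restricted minus general form) by an exact two-sided permutation test in scipy 1.17.1, adjusted over 8 pairs. The number of arrays limits the precision: the median half-width of the 95% interval of a member was 0.16.

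A gene's main probe set matches 1 gene and carries no _x_, _s_ or _a_ suffix where one exists, then has the highest mean level. For 28 of 88 genes it was not the brightest one. Genes named were those of the isoform pairs, up to 5 probe sets per direction without overlap, and per role group the main probe sets with the largest differences in each direction and the largest and smallest departures of wildtype replicate 7 and mutant replicate 8. Members and lists were chosen with earlier results of these data known. That pair was told apart by expression values, and no label names it. Alternatives were leaving out arrays, filters, other scalings and variance models, the pair as a block, other thresholds and other probe sets per gene. Sequences came from RefSeq, and Cox8c, Cox6a2, Cox4i1, Cox4i2 and Ndufa4l2 had no promoter window there. Ctcfl is not analysed here, and 1 further gene that the naming rule takes is not reported here.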

Additional observations from a re-analysis of the deposited data

Results flagged for a closer look

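Of 49 measures examined over the 5 wildtype arrays, 4 had 1 array far from the other 4 (a gap to the nearest array of over 0.71 of the group's range), where chance alone gives about 1 in 20 groups. Cox6b2 was 13.30 on wildtype replicate 7, with the nearest array at 13.20. Uqcrc2 was 11.54 on the same array against 11.70 on the nearest. Cox8b was 6.05 on wildtype replicate 4, with the nearest at 5.82, and Sdhc was 10.90 on wildtype replicate 1, with the nearest at 10.67.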

How the results depend on the processing

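No paired analysis was possible because the replicate numbers of the wildtype arrays and those of the mutant arrays have none in common. The count of members past an adjusted p of 0.05 was 0 under all 20 alternatives, and the median difference of the members stayed between -0.04 and 0.01. The 5 members past an unadjusted p of 0.05 became 0 to 17 when single arrays were left out (17 without mutant replicate 3, 0 without mutant replicate 5, 3 without wildtype replicate 2 and 9 without wildtype replicate 6). They became 9 with an offset of 64 on the linear scale, 9 with an intensity trend and robust prior, 8 without shared variance, 3 with 1 probe set per gene and 3 with the brightest probe set per gene (chosen after seeing the data), 1 at a threshold of 0.01 and 12 at 0.10. They stayed at 5 of 158 with only the probe sets that match 1 gene, also chosen after seeing the data. The causes were not tested, other than that fewer probe sets enter with 1 per gene.

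No isoform pair passed under any alternative with a test, the lowest adjusted p of the exact permutation test being 0.254. Where single arrays or the pair were left out, however, this test cannot reach 0.05 even before adjustment. The value of 0.254 was shared by the pairs of Cyct, Cox8c and Cox8b without mutant replicate 8. There both remaining mutant arrays lay below every wildtype array, which gives the lowest p possible. These alternatives thus cannot decide whether a pair differs. With single arrays left out, the genotype difference of Cyct minus Cycs ran from -0.40 to -0.15, of Cox6b2 minus Cox6b1 from -0.21 to 0.051, of Cox8c minus Cox8a from -0.15 to 0.028 and of Cox7a1 minus Cox7a2 from -0.25 to 0.20. Without the pair of arrays, Cox4i2 minus Cox4i1 was -0.051 and Cox7a1 minus Cox7a2 0.18. Within the pair, where no test is possible, the values were 0.0036 (Cyct), 0.12 (Cox6b2), 0.092 (Cox8c), 0.55 (Cox4i2), -0.38 (Cox7a1), -0.069 (Cox8b) and 0.65 (Ndufa4l2). Cox6a2 minus Cox6a1 was -0.0044 after repeated quantile normalisation and -0.055 as the mean over probe sets.

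Single genes that turned sign with 1 array left out were these: Ndufa4 from -0.076 to 0.13, Ndufs5 from -0.57 to 0.048, Cycs from -0.0079 to 0.18, Cox6b1 from -0.026 to 0.14, Cox6b2 from -0.065 to 0.025, Cox7a1 from -0.20 to 0.20, Cox8a from -0.026 to 0.13 and Cox8c from -0.021 to 0.024. Cox8c was also -0.0024 with arrays centred, -0.016 with array weights, -0.0013 with the pair blocked and -0.024 without the pair, Cox6b2 0.0091 and Cox7a1 -0.0074 after repeated quantile normalisation, and Ndufs5 0.024 without the pair. Of the members past an unadjusted 0.05, Cyct, Cox8b, Ndufa4l2, Cox5a and Ndufs4 kept their direction under every alternative fit of the table. These were picked by their p in the same arrays. At Cyct, Cox8b and the Cox5a probe set the genotypes did not overlap, so that leaving out arrays could not turn the sign. The kept direction therefore carries no weight as a test. The causes of the turns named above were not tested.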

Other observations

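The 9 genes that RefSeq lists today under these symbols but that the table holds under older names were Ndufaf3 to Ndufaf8, Uqcr10, Atp5mpl and Atp5md. Their brightest probe sets differed between genotypes by -0.07 (Atp5md, in the table as Usmg5) to 0.07 (Ndufaf6), and 0 of the 9 passed an unadjusted p of 0.05 in limma. Ndufaf3 ran from 12.69 to 12.81 and Uqcr10 from 11.54 to 11.62 over the 8 arrays. Dim second probe sets of 2 members stood out on wildtype replicate 7 alone: that of Atp5g2 read 5.14 there and 4.18 to 4.48 on the other arrays, and that of Sdhd read 7.91 there and 7.14 to 7.47 on the others.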
